A study of Mus musculus with 2 samples.

Results

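Cellular iron uptake, storage and sensing was followed through 10 genes, all of which had a row in both deposited tables, out of 14366 genes in each. They were the uptake genes Tfrc and Slc11a2, the ferritin genes Fth1 and Ftl1 with the ferritin receptor gene Ncoa4, the sensing genes Ireb2, Aco1 and Fbxl5, and the iron chaperone genes Pcbp1 and Pcbp2. The genes were taken by name and not by a rule on measured values. Earlier results of these data were known when they were chosen. Hematopoietic stem cells (HSC) had been sorted as lineage-negative, Sca-1+, c-Kit+, CD150+ and CD48- cells from the pooled marrow of 8 wildtype C57/B6 mice aged 6 to 8 weeks. Both groups were cultured with stem cell factor at 100 ng/ml and thrombopoietin at 50 ng/ml. The vehicle group received sterile water for 48 h, and the other group received deferoxamine (DFO), an iron chelator, at 10 µM for 48 h. Each group was 1 library made from 20000 loaded cells, so no test of treatment was possible, and treatment, culture and library cannot be told apart.

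The tables held 8708 vehicle and 9852 DFO cells, with medians of 27805.5 and 27114 unique molecular identifiers (UMIs, 1 per captured transcript) per cell. The libraries shared 24 cell barcodes. Levels are given as CPM, molecules summed over cells and scaled to a library total of 1e6, and a difference is log2((DFO CPM + 1)/(vehicle CPM + 1)). Ranges in parentheses are exact 95% Poisson intervals on a sum and cover counting error only, not variation between cells or cultures. A pair of levels is called separate where these intervals do not overlap. Reads came from transcript 3′ ends, where a transcript counts once whatever its length, so levels of different genes are compared here as molecules and not per base. All 22 listed HSC marker genes were in the tables, with a sum of 2175 CPM for vehicle and 2308 CPM for DFO. The 17 megakaryocyte markers in the tables, of 19 listed, were all lower in DFO, with sums of 2550.2 CPM for vehicle and 1428 CPM for DFO.

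As background, cells take up transferrin-bound iron through the transferrin receptor encoded by Tfrc, and store iron in shells of ferritin heavy and light chains. The iron regulatory proteins IRP1 (from Aco1) and IRP2 (from Ireb2) bind hairpins called iron-responsive elements (IREs) when iron is scarce. Binding to IREs in a 3′ UTR protects a transcript from decay, so the textbook direction at low iron is a higher transcript level. Binding to an IRE in a 5′ UTR holds back translation, and implies no direction for the transcript level that was measured here. Growing blood progenitors need iron for DNA synthesis and, in the erythroid line, for hemoglobin.

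The hairpins are shown because they set which direction each member is read against. UTRs of GENCODE M21 transcripts (GRCm38, the assembly called mm10 in the submitters' processing notes) were searched on the transcript strand for a C, 5 bases, the loop CAGTGN and 5 bases, where both arms pair with at most 1 unpaired position and G–T pairs allowed. Capitals mark the bulged C and the 6-base loop, and coordinates are those of the 17-base core.
Tfrc, element 1: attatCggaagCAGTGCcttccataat
Tfrc, element 2: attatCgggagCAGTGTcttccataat
Tfrc, element 3: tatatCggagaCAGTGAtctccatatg
Tfrc, element 4: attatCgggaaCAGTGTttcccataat
Slc11a2: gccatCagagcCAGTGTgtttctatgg
Fth1: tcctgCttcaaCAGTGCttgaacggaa
Ftl1: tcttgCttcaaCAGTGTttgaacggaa

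The 4 Tfrc elements lay in the 3′ UTR, in exon 19 of 19, on the plus strand at chr16:32631225-32631241, chr16:32631604-32631620, chr16:32631669-32631685 and chr16:32631716-32631732. They began 892, 1271, 1336 and 1383 bases after the last base annotated as coding, and all 4 had fully paired arms. The Slc11a2 element lay in the 3′ UTR, in exon 16 of 16, on the minus strand at chr15:100395159-100395175. It began 41 bases after the last base annotated as coding and had 1 unpaired position. The ferritin elements lay in 5′ UTRs, on the plus strand at chr19:9982738-9982754 for Fth1 and on the minus strand at chr7:45459785-45459801 for Ftl1, both fully paired. Ireb2, Aco1, Fbxl5, Ncoa4, Pcbp1 and Pcbp2 had no match in either UTR. Of 13056 genes searched, 5.08% had a match in a 3′ UTR and 1.12% in a 5′ UTR. With fully paired arms these shares were 0.774% and 0.199%. Tfrc had the highest number of 3′ UTR matches of any gene searched.

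Over all cells, 6 members were higher and 4 lower in DFO, where 57.9% of 8886 genes with a mean of at least 5 CPM were higher. Tfrc and Pcbp1 were higher by at least 0.2, which is 2 of 10 members beside 3.14% of all genes. The count was 1 with the median difference of all genes set to 0, with a pseudocount of 10 CPM or without cluster 4, and 0 with totals that left out ribosomal protein genes. No member was lower by at least 0.2, beside 4.12% of all genes. At a size of 0.1 there were 3 members higher, Pcbp2 in addition, beside 19.2% of all genes, and none lower, beside 14% of all genes. No member reached 0.5 in either direction, beside 0.0113% of genes higher and 0.664% lower. Levels were separate for 6 of 10 members, beside 54.2% of all genes, so separation by counting error at this depth sets no member apart. That share was not counted within clusters or smaller strata, so counts of separate clusters or strata below set no member apart. The median difference was 0.032 for the members and 0.019 for all genes, with an SD of 0.13 over all genes.

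**Figure D1:**
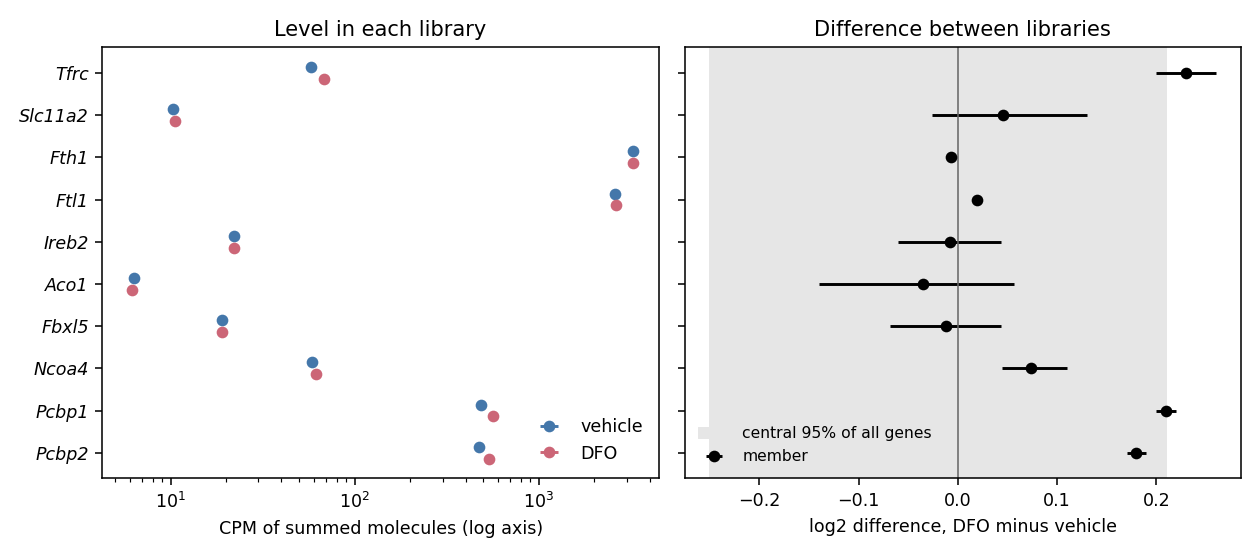
Left, level of each member in the vehicle and DFO libraries as CPM of summed molecules on a log axis, with exact 95% Poisson intervals. Right, log2 difference of DFO minus vehicle with its exact counting interval, where the grey band from -0.25 to 0.21 holds the central 95% of all genes; Tfrc lies beyond its upper edge at 0.23 and Pcbp1 at its edge at 0.21.

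Tfrc (chr16:32608920-32632794, plus strand) encodes the receptor that carries transferrin-bound iron into the cell. The vehicle level was 57.8 CPM (56.8–58.7) and the DFO level 67.7 CPM (66.7–68.7). The DFO level was 17.2% higher, a log2 difference of 0.23 (exact interval of the ratio 0.20–0.26), and 98.0% of genes had a lower difference. This is the textbook direction for a 3′ UTR element at low iron. With every cell thinned to 10000 UMIs, which left out 351 vehicle and 433 DFO cells, a Tfrc molecule was seen in 36.4% of vehicle cells (Clopper-Pearson 35.4–37.5%) and in 43.8% of DFO cells (42.8–44.8%). Unthinned, the shares were 63.4% and 69.4%. No cell type in these tables is known to lack Tfrc, so no background share stands beside these.

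Cells were clustered without the members and without the listed S phase and G2/M genes, and the 9 clusters were described by their leading genes. Other cycle genes were not left out by rule, so clusters can still follow the cycle. Cluster 6 was HSC-like (leading genes Dlk1, Wfdc2, Sult1a1, Procr and Ly6a among others), and took 5.20% of the vehicle and 5.21% of the DFO cells. The name rests on 3 HSC markers among its leading genes. Against all other cells its mean log2 fold was 1.07 for 20 detected HSC markers. It was 1.24 for 4 macrophage or dendritic and 1.13 for 4 neutrophil-monocyte markers. Cluster 5 was megakaryocyte-like (Clec1b, Timp3, Cavin2, Ppbp and Pf4), with 8.51% of vehicle and 4.51% of DFO cells. Cluster 2 mixed megakaryocyte and erythroid genes (Gp5, Gata1, Aqp1 and Klf1) and stayed unnamed, as did cluster 8, with only 88 vehicle and 82 DFO cells. Cluster 8 was led by the granule genes Mpo, Ctsg and Elane, followed by the mast or basophil marker Mcpt8. Against all other cells its mean log2 fold was 3.57 for 9 detected neutrophil-monocyte markers. For 3 detected mast or basophil markers it was 3.67. Clusters 0 (Hist1h2bc, Ung), 1 (Hist1h1b, Hist1h2ae), 3 (Neurl1b, Nusap1, Ube2c) and 4 (Slc7a8, Gna14, Fgf3, Nusap1) had no lineage name. Cluster 7 was shallow, with a median of 6949 UMIs and a mitochondrial share of 6.85%, and was unnamed too.

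Among the members, Tfrc varied most between clusters in the vehicle library. Its level was highest in the megakaryocyte-like cluster 5, at 83.3 CPM (80.3–86.4), and lowest in the HSC-like cluster 6, at 24.1 CPM (21.3–27.2). The span was 3.45-fold in vehicle and 3.04-fold in DFO, a log2 range larger than that of 86.9% of genes in vehicle. Between these lay cluster 7 at 75.2 CPM, cluster 2 at 74.6, cluster 8 at 66.1, cluster 1 at 56.2, cluster 0 at 51.7, cluster 4 at 41.6 and cluster 3 at 41.0. The neighbours 5 and 7, 7 and 2, 2 and 8, 8 and 1, and 4 and 3 in this order had overlapping intervals. The order was nearly the same in DFO, where cluster 2 (93.6 CPM) came above cluster 5 (87.1). In the other clusterings tried the vehicle span ran from 1.68-fold, with 4 clusters at resolution 0.25, to 3.81-fold, with 1000 variable genes. With seed 2 at the same resolution as here, and again 9 clusters, it was 1.98-fold. At resolution 0.25 and with seed 2 Slc11a2 varied more than Tfrc, by 2.34-fold and 2.52-fold.

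**Figure D2:**
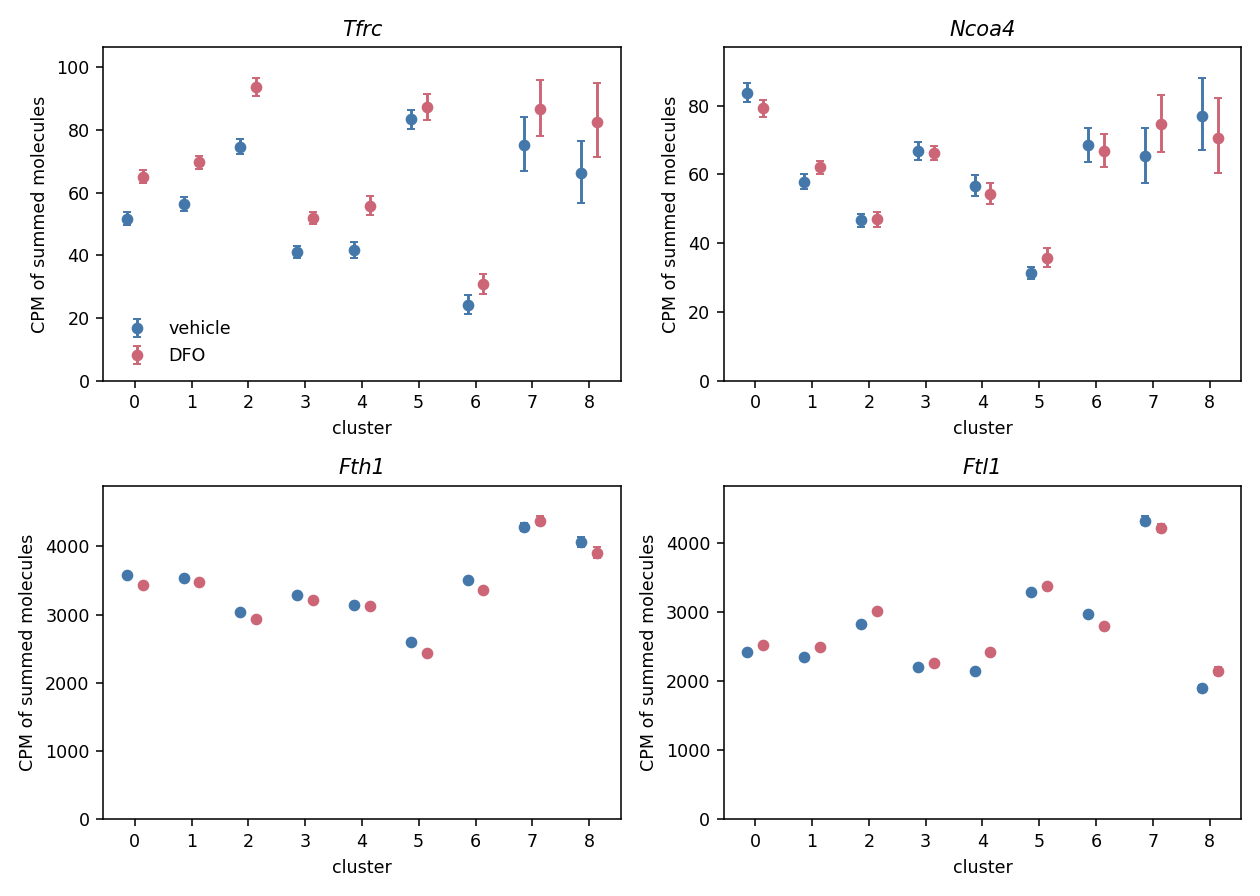
Level of Tfrc, Ncoa4, Fth1 and Ftl1 in each of 9 clusters, as CPM of summed molecules in the vehicle and DFO libraries, with exact 95% Poisson intervals. Tfrc is highest in clusters 5 and 2 and lowest in the HSC-like cluster 6, while Ncoa4 is lowest in the megakaryocyte-like cluster 5.

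Within clusters, Tfrc was higher in DFO in 9 of 9, as were 12.4% of all genes, with separate levels in 6. The differences were 0.33, 0.30, 0.32, 0.34 and 0.41 in clusters 0 to 4, and 0.34 in the HSC-like cluster, from 24.1 to 30.8 CPM (27.7–34.1). In the HSC-like cluster the difference was 0.093 in female cells, from 27.9 CPM (23.8–32.5) to 29.8 CPM (25.5–34.7) with overlapping intervals, and 0.65 in male cells, from 18.8 CPM (14.5–24.0) to 30.1 CPM (25.0–35.9) with separate ones; the difference between the sexes was not tested. In the megakaryocyte-like cluster the level was 83.3 CPM in vehicle and 87.1 CPM (83.1–91.3) in DFO, a difference of 0.064 with overlapping intervals. Clusters 7 and 8 had differences of 0.20 and 0.32, also with overlapping intervals. The median of the 9 cluster differences, 0.32, lay above the difference of 0.23 over all cells. With cluster shares made equal in both libraries the difference over all cells was 0.29, and without cluster 5 it was 0.30. The summed megakaryocyte markers were lower in DFO within each cluster as well as over all cells. The sums were 8792 CPM for vehicle and 6281 CPM for DFO in cluster 5, 3769 and 2629.6 CPM in cluster 2, 2060.1 and 1481 CPM in cluster 4, and 1787 and 949 CPM in cluster 7. In the other 5 clusters they lay between 513 and 815 CPM for vehicle and between 489 and 731 CPM for DFO. Their part in the Tfrc difference was not tested. Whether the difference of the megakaryocyte-like cluster departs from that of the others was not tested, as there was 1 library per group.

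Tfrc was lowest in cells called G1. In vehicle it stood at 33.3 CPM (30.4–36.5) in G1, 64.2 CPM (62.3–66.1) in S and 57.1 CPM (56.0–58.3) in G2/M. In DFO the levels were 36.6 CPM (33.0–40.5), 75.8 CPM (73.9–77.8) and 65.8 CPM (64.7–67.0). Levels in the 2 libraries were separate in S and G2/M, with differences of 0.24 and 0.20, and overlapped in G1, with a difference of 0.13. G1 was the smallest class, with 761 vehicle and 570 DFO cells, and 16.2% of vehicle and 15.3% of DFO cells lay within 0.05 score units of a limit between phases. Clusters 3, 4 and 5 were almost all G2/M by call (99.9%, 99.2% and 93.1% of cells), so phase and cluster overlap. The low level in G1 was also seen inside cluster 0, where vehicle Tfrc was 30.9 CPM (27.0–35.1) in G1, 53.3 CPM (50.2–56.6) in S and 58.8 CPM (55.1–62.6) in G2/M. HSC-like cells were low in every phase, at 16.8, 31.0 and 17.2 CPM in G1, S and G2/M of vehicle. In the 87 vehicle and 103 DFO HSC-like cells called G2/M the levels were 17.2 CPM (12.3–23.3) and 34.1 CPM (27.5–41.9), a difference of 0.95. In HSC-like cells called G1 and S the differences were 0.018 and 0.14, with overlapping intervals. The G1 and G2/M values are the lowest and the highest for Tfrc in any cluster and phase.

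Splitting by cluster and phase together gave 15 strata with at least 50 cells per library. Tfrc was higher in DFO in 15 of 15, as were 5.03% of all genes, and separate in 9. The pool held cells of both sexes, told apart by Xist and 4 Y-linked genes, and Tfrc differed by 0.23 in female cells and by 0.23 in male cells. It was higher in DFO in 15 of 16 strata of cluster and sex, where 11.1% of all genes were higher in at least 15, and separate in 11. With cells split into 4 bins by UMI count, the vehicle level was 42.8, 53.1, 60.0 and 63.1 CPM from the shallowest to the deepest bin. The difference was 0.33, 0.33, 0.23 and 0.17, higher in DFO in each. Tfrc also varied more from cell to cell than other genes: on cells thinned to 10000 UMIs its variance was 1.33 times its mean in vehicle, above that of 95.9% of 1917 genes of similar level, and 1.32 times in DFO.

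**Figure D3:**
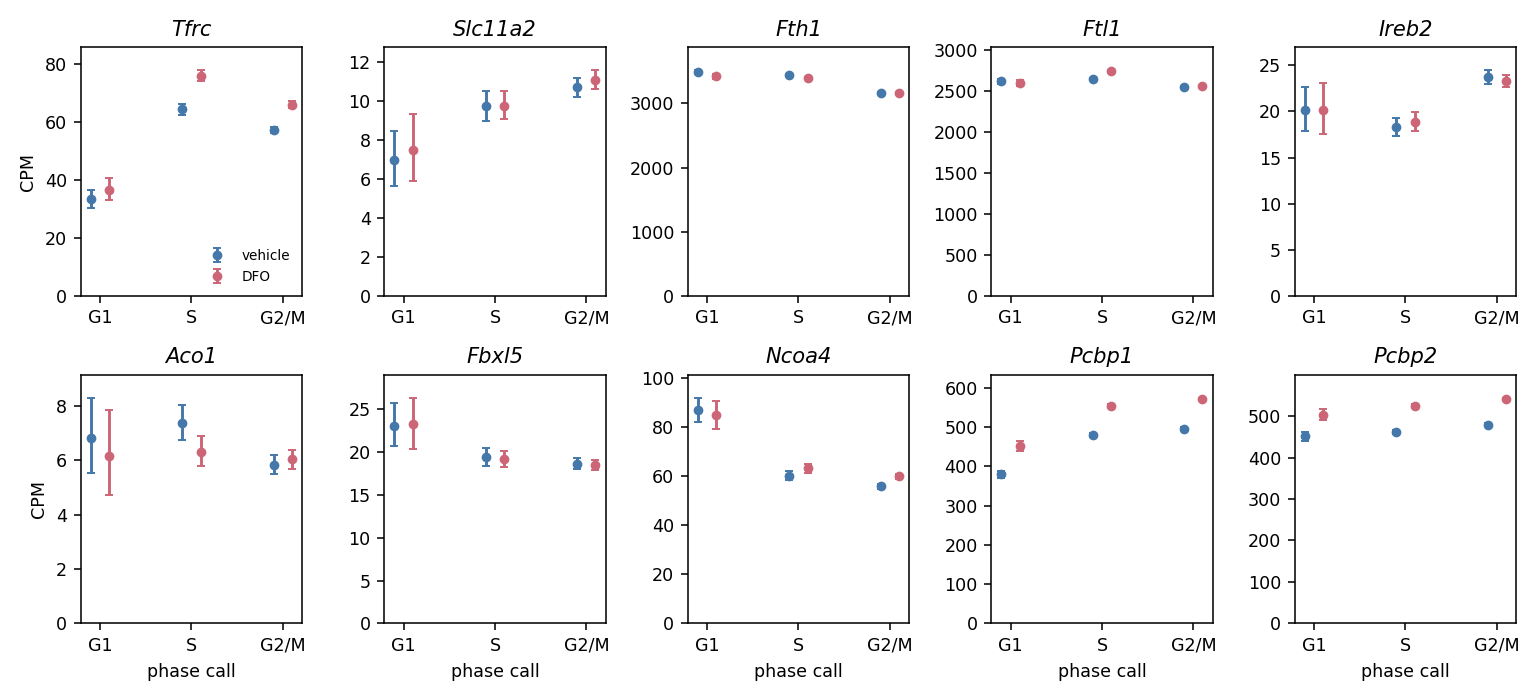
Level of each member by cycle phase call (G1, S, G2/M) as CPM of summed molecules, vehicle and DFO side by side, with exact 95% Poisson intervals and axes from 0. Tfrc is lowest and Ncoa4 highest in G1, and Pcbp1 and Pcbp2 are higher in DFO in all 3 phases.

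Slc11a2 (chr15:100387898-100425072, minus strand) encodes DMT1, which moves ferrous iron out of the endosome. Its level was 10.3 CPM (9.88–10.7) in vehicle and 10.6 CPM (10.2–11) in DFO, a difference of 0.045 with overlapping intervals. The exact interval of the ratio over all cells, -0.026 to 0.13, lies below the Tfrc interval. The Slc11a2 difference was 0.11 with equal cluster shares and 0.14 on thinned cells, where Tfrc was 0.29 and 0.31. It was 0.013 in female cells and 0.15 in male cells. In male cells its interval, 0.026 to 0.29, overlapped that of Tfrc, 0.18 to 0.29. Only 1 of 7 annotated coding transcripts of Slc11a2 carried the hairpin, and the counts do not separate transcripts. Within clusters Slc11a2 was higher in DFO in 8 of 9 (7 of 9 when totals left out ribosomal protein genes). The share of all genes higher in as many was not counted. Slc11a2 levels were separate only in the megakaryocyte-like cluster, with 11.6 CPM (10.5–12.8) for vehicle and 14.5 CPM (12.8–16.2) for DFO. These bounds meet without overlap, and the difference was 0.29. In that cluster the difference was 0.18 in female cells, with overlapping intervals, and 0.61 in male cells, with separate ones. The difference between the sexes was not tested. The vehicle level of Slc11a2 was lowest in the HSC-like cluster, at 6.68 CPM, which is also where Tfrc was lowest. By phase it was 6.96 CPM (5.66–8.48) in G1, 9.74 in S and 10.7 CPM (10.2–11.2) in G2/M of vehicle.

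The ferritin genes were by far the most abundant members. Fth1 (chr19:9980598-9985098, plus strand), the heavy chain with the ferroxidase center, stood at 3261 CPM (3254–3267) in vehicle against 3246 CPM (3239–3252) in DFO. Ftl1 (chr7:45457944-45459884, minus strand), the light chain, stood at 2589.7 CPM (2583–2596) and 2624 CPM (2618–2630.2). The differences of -0.0066 and 0.019 were separate by counting error at this depth, but each turned sign under another scaling: Fth1 was 0.0016 with totals that left out mitochondrially encoded genes, and Ftl1 was -0.010 with totals that left out ribosomal protein genes. With cluster shares made equal in both libraries the differences were -0.042 for Fth1 and 0.063 for Ftl1. Without cluster 5 they were -0.025 and 0.051. Neither reached a size of 0.1 over all cells. A 5′ UTR element gives no textbook direction for these levels.

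Within clusters Fth1 was lower in DFO in 8 of 9 clusters, where 14.3% of all genes were lower in at least 8, and separate in 7 of them, between -0.093 in the megakaryocyte-like cluster and 0.031 in the shallow cluster 7. With a median difference of 0, or without ribosomal protein genes in the totals, it was lower in 9 of 9. It was lower in 15 of 15 strata of cluster and phase, as were 2.43% of all genes, and separate in 11. Ftl1 was higher in DFO in 7 of 9 clusters and separate in 7. How many of all genes were higher or separate in as many clusters was not counted. Ftl1 was lower in the HSC-like cluster, from 2968 CPM (2936–3001) to 2798 CPM (2768–2829), where Fth1 was lower too (-0.062). In the shallow cluster 7 its difference was -0.035 with overlapping intervals. Its highest differences were 0.17 in cluster 4 and 0.18 in cluster 8. All these differences are under 0.2.

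The ratio of the chains differed between clusters. There were 1.26 Fth1 molecules per Ftl1 molecule in vehicle and 1.24 in DFO. The ratio was 0.792 and 0.724 in the megakaryocyte-like cluster, and 1.08 and 0.971 in cluster 2. In cluster 8, led by Mpo, it was 2.14 in vehicle and 1.82 in DFO. In the HSC-like cluster it was 1.18 and 1.20. Megakaryocyte-like cells thus had the lowest Fth1 of any cluster, at 2605 CPM (2588–2622) in vehicle, and the highest Ftl1 outside the shallow cluster, at 3291 CPM (3272–3310.3). On thinned cells the variance of Ftl1 was 4.25 times its mean in vehicle and 3.33 times in DFO, and that of Fth1 3.27 and 2.93 times. For 52 and 50 genes of similar level in vehicle the median ratios were 1.42 and 1.49.

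Related genes may bear on the ferritin counts. The annotation holds 11 genes matched by name to Fth1 as pseudogenes or like genes, none of them in the tables. It holds 3 matched by name to Ftl1, of which Ftl1-ps1, annotated as protein coding, was in the tables. No sequences were compared, so how alike these genes are was not measured. Ftl1-ps1, named here after its values were seen, stood at 8.34 CPM (8.00–8.70) in vehicle against 10.3 CPM (9.96–10.7) in DFO, a difference of 0.28. It was higher in DFO in 9 of 9 clusters, as were 12.4% of all genes, and separate in 5. Reads of Ftl1 could be assigned to it, so its level is uncertain.

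Ncoa4 (chr14:32159865-32179855, plus strand) encodes the receptor that delivers ferritin to autophagosomes and so releases stored iron. Its level was 58.6 CPM (57.7–59.5) in vehicle and 61.7 CPM (60.8–62.7) in DFO, a difference of 0.074 (exact interval of the ratio 0.044–0.11) that 72.3% of genes did not reach. Within clusters it was higher in 4 of 9 and lower in 5, and higher in 3 under 2 of the other scalings. Levels were separate in cluster 1, with a difference of 0.10, and in the megakaryocyte-like cluster, with 31.3 CPM (29.5–33.2) for vehicle and 35.8 CPM (33.2–38.5) for DFO, again with bounds that meet, a difference of 0.19. With equal cluster shares in both libraries the difference over all cells was 0.0081, and without cluster 5 it was 0.018.

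Ncoa4 was lowest in the megakaryocyte-like cluster, at 31.3 CPM in vehicle, and then in cluster 2, at 46.7 CPM. Tfrc was high in both, but the levels did not run opposite in all clusters. Clusters 7 and 8 had vehicle Tfrc at 75.2 and 66.1 CPM, with Ncoa4 at 65.3 and 77.0 CPM. Ncoa4 was highest in cluster 0 at 83.7 CPM (81.1–86.5), followed by cluster 8 at 77.0 CPM (67.0–88.1) and the HSC-like cluster at 68.4 CPM (63.5–73.5). The fold between the highest and the lowest cluster was 2.68 in vehicle and 2.21 in DFO. By phase it was highest in G1, at 87.0 CPM (82.2–92.0) in vehicle, against 60.0 CPM in S and 55.8 CPM (54.7–56.9) in G2/M. With cells split into 4 bins by UMI count the vehicle level was 80.7 CPM in the shallowest and 49.6 CPM in the deepest, so its level moved with depth per cell; the part of depth in the phase difference was not tested.

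The sensing genes were low, and none had separate levels over all cells, in any cluster or in any phase. Ireb2 (chr9:54863789-54912530, plus strand), which encodes IRP2, was at 22.2 CPM (21.7–22.8) in vehicle against 22.1 CPM (21.5–22.6) in DFO. Aco1 (chr4:40143081-40198338, plus strand), which encodes the bifunctional cytosolic aconitase IRP1, was at 6.30 CPM (6.00–6.62) and 6.13 CPM (5.84–6.42). Fbxl5 (chr5:43744615-43821638, minus strand), which encodes the iron-binding ubiquitin ligase subunit that marks IRP2 for degradation, was at 19.1 CPM (18.6–19.7) and 19.0 CPM (18.5–19.5). The exact intervals of the ratios ran from -0.060 to 0.043 for Ireb2, -0.14 to 0.057 for Aco1 and -0.068 to 0.043 for Fbxl5. Counting error thus allowed, over all cells, no difference as large as 0.2 between these libraries for any of the 3. As background, all 3 products are known to be controlled by iron at the protein level, which transcript counts do not show.

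Levels of the sensing genes still differed between cells. Ireb2 was highest in G2/M, at 23.7 CPM (23.0–24.5) in vehicle against 18.3 CPM (17.3–19.3) in S, and outside the shallow cluster it was highest in cluster 3 at 25.4 CPM (23.9–27.0). Aco1 was highest in the HSC-like cluster, at 10.3 CPM (8.47–12.4) in vehicle against 8.66 CPM (7.07–10.5) in DFO, from 111 and 103 molecules. Outside it, vehicle levels ran from 4.72 to 6.99 CPM. Within it the vehicle level was 13.1 CPM (10.2–16.5) in S, 9.62 CPM (6.1–14.4) in G2/M and 5.71 CPM (3.27–9.28) in G1. With seed 2, also with 9 clusters, the vehicle span of Aco1 was 1.43-fold, against 2.18-fold here. There were 3.53 Ireb2 molecules per Aco1 molecule over all vehicle cells and 3.61 over all DFO cells. In the HSC-like cluster the ratio was 1.98 in vehicle and 2.44 in DFO, the lowest of any cluster in each library. Fbxl5 ran from 15.9 CPM in cluster 4 to 22.8 CPM in the HSC-like cluster in vehicle, outside the shallow cluster 7. Between libraries the cluster order had a Spearman rho of 0.43 for Fbxl5, 0.25 for Aco1 and 0.95 for Tfrc over 9 clusters, a description. Without the shallow cluster these were 0.19, 0.43 and 0.98. Many cluster intervals of Fbxl5 and Aco1 overlapped, and Aco1 had only 13 vehicle and 16 DFO molecules in cluster 8. The part of counting error in these orders was not tested. Gm42555, which overlaps Fbxl5 on the same strand, was at 0.0843 CPM in vehicle against 0.158 CPM in DFO.

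The chaperone genes were higher in DFO in every cluster and phase. Pcbp1 (chr6:86524492-86526321, minus strand) and Pcbp2 (chr15:102470539-102500061, plus strand) encode poly(rC)-binding proteins that also deliver iron to ferritin and to iron enzymes. Pcbp1 went from 484 CPM (482–487) in vehicle to 561 CPM (558–564) in DFO, 15.8% higher, a difference of 0.21 that 97.4% of genes did not reach. Pcbp2 went from 474 CPM (471–477) to 537 CPM (534–539.8), 13.3% higher, a difference of 0.18 that 95.2% of genes did not reach. With the median difference of all genes set to 0 the values were 0.19 and 0.16, and with totals that left out ribosomal protein genes 0.18 and 0.15.

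Both were higher in 9 of 9 clusters, Pcbp1 by 0.14 to 0.31 with 9 separate, and Pcbp2 by 0.14 to 0.26 with 8 separate. Beside this, 12.4% of all genes were higher in 9 of 9. How many were separate in as many clusters was not counted. Both were higher in 15 of 15 strata of cluster and phase, as were 5.03% of all genes, and in 16 of 16 strata of cluster and sex, as were 5.59%. In the megakaryocyte-like cluster Pcbp1 went from 545 CPM (537–553) to 606 CPM (595–617) and Pcbp2 from 482 CPM (475–489) to 563 CPM (553–574). In the HSC-like cluster the levels were 437 CPM (425–449.8) and 517 CPM (504–530.3) for Pcbp1, and 454 CPM (441–467) and 513 CPM (499.8–526) for Pcbp2. Within vehicle Pcbp1 was at 379 CPM (369–389) in G1 and 496 CPM (493–499) in G2/M. Their spread over clusters was narrow: without the shallow cluster it was 1.25-fold for Pcbp1 and 1.08-fold for Pcbp2 in vehicle, and only 0.371% of genes had a smaller log2 range than Pcbp2. Genes on the opposite strand, 1600020E01Rik for Pcbp1 and Gm26518 and Map3k12 for Pcbp2, were at 5.75, 6.94 and 3.18 CPM in the vehicle library, and at 5.25, 6.33 and 3.16 CPM in the DFO library.

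**Figure D4:**
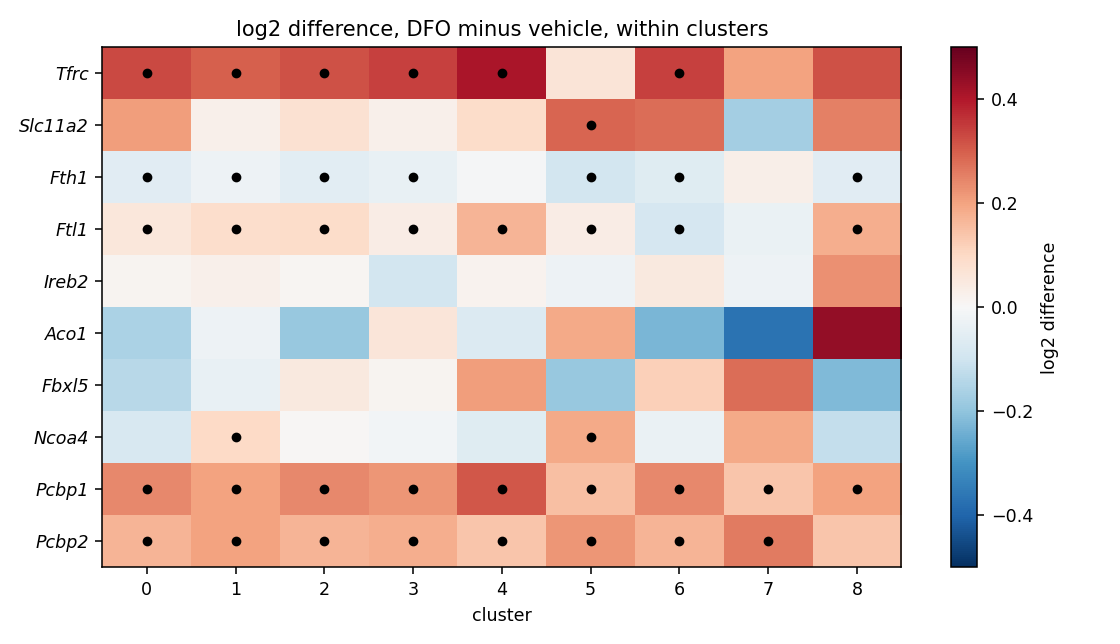
Log2 difference of DFO minus vehicle for each member (rows) in each of 9 clusters (columns), coloured from -0.5 (blue) to 0.5 (red); black dots mark clusters whose 95% Poisson intervals do not overlap. The Tfrc, Pcbp1 and Pcbp2 rows are red in all clusters, with dots in 6, 9 and 8 of them, and the Ireb2, Aco1 and Fbxl5 rows have no dot.

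The 2 other transcripts with a reported 3′ UTR element and a mean of at least 5 CPM were lower in DFO, with overlapping intervals, where Tfrc was higher. Cdc14a, a phosphatase gene with a 3′ UTR hairpin at chr3:116274366-116274382 (minus strand, 300 bases after the last base annotated as coding), was at 19.8 CPM (19.2–20.3) and 19.1 CPM (18.6–19.6), a difference of -0.047. Cdc42bpa, reported to have a 3′ UTR element but without a match here, differed by -0.060 with overlapping intervals. The Cdc14a match is shown for comparison with the Tfrc elements.
Cdc14a: attgaCatgtaCAGTGTtacacatata

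Among all 8685 genes tested that had been searched, those with a match were compared with all. The 462 genes with a 3′ UTR match had a median difference of 0.021, with 2.16% of them higher by at least 0.2, and the 66 with fully paired arms had a median of 0.0051 and 3.03%. The 106 genes with a 5′ UTR match had a median of 0.028, with 2.83% higher by at least 0.2, and the 21 with fully paired arms had a median of 0.067, with 9.52% (2 genes) higher and 4.76% (1 gene) lower by at least 0.2. The median of all searched genes was 0.019, and 3.06% were higher by at least 0.2. Most of these matches are not known IREs.

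Of 19 other genes of iron uptake, export and storage, 12 were in the tables and 8 had a mean of at least 5 CPM. Of these, 4 were higher and 4 lower in DFO, 2 higher and 1 lower by at least 0.2, with a median of -0.022. The highest were the heme exporter gene Flvcr1 (0.23) and the zinc and iron transporter gene Slc39a14 (0.21). The lowest were the heme oxygenase gene Hmox1, at 7.12 CPM (6.80–7.45) in vehicle against 5.89 CPM (5.61–6.18) in DFO, a difference of -0.24, and the second transferrin receptor gene Tfr2 (-0.11). Tfrc and Tfr2 therefore lay on opposite sides of 0. The ferroportin gene Slc40a1 was nearly absent, with 59 molecules in vehicle and 54 in DFO.

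Of 15 genes that work with the sensing proteins or in ferritin turnover, all were in the tables and 13 had a mean of at least 5 CPM. Of these, 8 were higher and 5 lower, with a median of 0.068, and 1 was higher by at least 0.2. That was Pcbp4, a paralog of the chaperones, at 13.7 CPM (13.3–14.2) in vehicle against 17.6 CPM (17.1–18.1) in DFO, a difference of 0.33. Next came Ciapin1 (0.17), of cytosolic iron-sulfur cluster assembly. The lowest were the autophagy receptor gene Tax1bp1 (-0.050) and the RNA decay factor gene Zfp36l1 (-0.033). Myc, a known transcriptional activator of Tfrc, was at 91.9 CPM (90.8–93.1) and 108 CPM (106–109), a difference of 0.22. It was higher in DFO in 8 of 9 clusters, with differences of 0.15, 0.21, 0.14, 0.12 and 0.20 in clusters 0 to 4, 0.41 in the megakaryocyte-like and 0.045 in the HSC-like cluster, 0.41 in cluster 7 and -0.10 in cluster 8. How many of all genes were higher in at least 8 of 9 clusters was not counted. The part of Myc in the Tfrc difference was not tested.

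Similar patterns were sought as the Pearson correlation of log2(CPM + 1) over 18 profiles, 9 clusters in 2 libraries, which share depth and the same clusters; values without the shallow cluster (16 profiles) follow the first. Tfrc was most like Ybx3 (0.92, 0.91), Hccs (0.90, 0.90) and Arf6 (0.89, 0.91). Ncoa4 was most like Plscr3 (0.97, 0.97), Sox4 (0.95, 0.95) and Gpx1 (0.95, 0.96). Fth1 was closest to Parvg (0.97, 0.95), Serf1 (0.97, 0.96) and Zfp787 (0.95, 0.95), and Ftl1 to AU020206 (0.98, 0.95), Snx25 (0.97, 0.94) and Rdh10 (0.96, 0.95). Pcbp1 was closest to Lsm7 (0.96, 0.95), G3bp1 (0.96, 0.97) and Pno1 (0.96, 0.94). For Pcbp2 these were mt-Nd3 (0.97, 0.90), mt-Nd1 (0.95, 0.89) and Ppp4c (0.94, 0.86).

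Of the low genes, Slc11a2 was closest to Rspry1 (0.95, 0.94), Stk11 (0.93, 0.94) and Csk (0.93, 0.92). Ireb2 was closest to Secisbp2l (0.98, 0.95), Tab2 (0.98, 0.95) and Rock1 (0.97, 0.89), and Fbxl5 to H6pd (0.93, 0.84), Ggps1 (0.92, 0.84) and Fnip2 (0.90, 0.76). Aco1 was closest to Fads3 (0.79, 0.82), Plpp2 (0.79, 0.83) and Rnf25 (0.77, 0.75). Between members, over single thinned cells, the highest correlation was that of Fth1 and Ftl1, 0.18 over 8357 vehicle cells and 0.13 over 9419 DFO cells; in counts this sparse it is a description.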

How the data were processed

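Single-cell RNA was measured in 1 vehicle and 1 DFO library. Per the submitters' processing notes, FastQC 0.11.9, Trim Galore 0.6.5, Cell Ranger 3.0.2 and mm10 were used; the sources used here do not say whether reads were counted by strand. The authors deposited natural log values, ln(1 + 27408 × molecules / total of the cell), per the values themselves. All nonzero values gave whole molecules within 0.05. Depth was 260938938 and 284326017 molecules, from 2009 to 99237 UMIs per cell.

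Molecules were summed per library, cluster, phase or sex and scaled to CPM, with a pseudocount of 1 CPM. Neither a count model nor a test was run, as each group had 1 library; intervals are exact at 95% and treat molecules as independent. Clusters came from Leiden clustering (resolution 0.5, seed 0, 2000 variable genes, 30 principal components, 15 neighbours, no integration), and were named only from listed markers. The variable genes left out the members, other iron genes, the listed S phase and G2/M genes, and mitochondrially encoded and ribosomal protein genes. Names were rebuilt here, since no annotation of cells was used. Phase was scored with scanpy 1.11.5 on cells thinned to 10000 UMIs. Cells with molecules of both sexes and the top 8% of Scrublet scores were left out as likely doublets in 1 alternative. Genes named beside the 10 members are the highest and lowest 2 of each of the other lists, other genes with a reported IRE at 5 CPM or more (1 is not reported here), the 3 most similar genes per member, leading genes of clusters, and Myc. The calculations were checked on simulated data. Python 3.11.15, numpy 2.4.6, scipy 1.17.1 and pandas 2.3.3 were used. The members, lists and tests were chosen with earlier results of these data known.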

Additional observations from a re-analysis of the deposited data

Results flagged for a closer look

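In 4 members the difference between DFO and vehicle went opposite ways in pairs of clusters. The pairs were picked from 9 clusters by their values. How many of all genes have such a pair was not counted, so the number sets no member apart. With 1 library per group none of these contrasts was tested. In each cluster named the exact counting interval of the ratio left out 0. Fth1, the ferritin heavy chain, differed by 0.031 in the shallow cluster 7, where intervals overlapped, and by -0.093 in the megakaryocyte-like cluster 5. With the median difference set to 0, or with totals that left out ribosomal protein genes, Fth1 was lower in all 9 clusters, with highest values of -0.0072 and -0.015. Ftl1, the light chain, differed by 0.18 in cluster 8, led by Mpo, and by -0.085 in the HSC-like cluster 6, each with separate intervals. Fbxl5 differed by 0.21 in cluster 4 and by -0.19 in cluster 5, with overlapping intervals in both. Ncoa4 differed by 0.19 in cluster 5, with separate intervals, and by -0.079 in cluster 0, with overlapping ones.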

How the results depend on the processing

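Tfrc, Pcbp1 and Pcbp2 were higher in DFO under all 22 other settings, at 0.20 to 0.31, 0.18 to 0.23 and 0.15 to 0.19, and in every cluster of all 5 other clusterings. The number of members higher by at least 0.2 was 2. It was 1 with a pseudocount of 10 CPM, with the median difference set to 0 and without cluster 4. It was 0 with totals that left out ribosomal protein genes and at a size of 0.5. The number lower by at least 0.2 was 0 in each. Fth1 turned from -0.0066 to 0.0016 with totals without mitochondrially encoded genes and to 0.0029 without cluster 0, and Ftl1 from 0.019 to -0.010 with totals without ribosomal protein genes. With equal cluster shares Fth1 and Ftl1 moved away from 0, to -0.042 and 0.063, and without cluster 5 to -0.025 and 0.051. Tfrc went to 0.31 on thinned cells. Ncoa4 ran from 0.0081 with equal cluster shares to 0.11 without cluster 0. The cause of these moves was not tested. Leaving out single clusters, using cells of 1 sex and other scalings within clusters were chosen after seeing the data. Aco1, with 1645 and 1742 molecules, is limited by depth within clusters. No paired analysis was possible because each group has 1 library.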
